A study of Mus musculus with 54 samples.

Results

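The 9 genes described here belong to the route by which IgA reaches the gut lumen and were followed in the mouse small intestine. They were chosen by symbol: Cd79a, Cd79b and Ms4a1 of B cells, Mzb1, Jchain and Tnfrsf17 of plasma cells, Ccr10 and Ccl28 of plasma cell homing, and Pigr of transport across the epithelium. All 9 listed members were found among the 25229 gene symbols of the files, and the symbols include 0 immunoglobulin constant or segment genes, so the antibody genes themselves were not analysed here. Polyadenylated RNA was sequenced from the duodenum, jejunum and ileum of lactating females (LF) on day 7 of lactation, virgin females (VF) of matched age and virgin males (VM), with 6 libraries in each of the 9 groups. All mice were kept on standard chow, RM3 in breeding and RM1 in maintenance and experiments. The labels name neither the strain nor the animal behind each library, so p-values measure the spread between these libraries. By the GENCODE annotation of GRCm38 all 9 are protein-coding genes: Cd79a (chr7:24897381-24902197, plus strand), Cd79b (chr11:106311341-106314762, minus), Ms4a1 (chr19:11249675-11266241, minus), Mzb1 (chr18:35647267-35649367, minus), Jchain (chr5:88519809-88527891, minus), Tnfrsf17 (chr16:11313812-11320074, plus), Ccr10 (chr11:101172997-101175443, minus), Ccl28 (chr13:119623819-119654359, plus) and Pigr (chr1:130826684-130852249, plus). The comparisons are those between sections within each group, and LF against VF within each section.

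Plasma cells of the gut wall secrete IgA as pairs of antibody units joined by the J chain, and the polymeric immunoglobulin receptor carries these across epithelial cells. Plasma cells that bear the receptor CCR10 are drawn to tissues that make its ligand CCL28, among them the intestine and the lactating mammary gland. In lactating mice, IgA plasma cells of gut origin settle in the mammary gland and supply the milk with IgA.

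Promoters (GRCm38.p6, 250 bases before to 50 after the RefSeq start of the gene) could be read for 5 of the 9 members. RefSeq and GENCODE do not always share a start: for Cd79a the RefSeq start lies inside the GENCODE span given above. Those of 4 are given because each stands for a pattern of the results. The patterns are those of a B cell gene that was high in a few libraries, a plasma cell gene and the 2 epithelial genes. The epithelial genes followed each other between libraries but differed in opposite directions between the ileum and the duodenum. Each promoter is written 5′ to 3′ on the strand of its gene. Capitals mark matches, on either strand, to the E-box CAGGTG (reverse CACCTG), the ETS motif AGGAAGT (reverse ACTTCCT) and the USF E-box CACGTG.
Cd79a, chr7:24897247-24897546, plus strand: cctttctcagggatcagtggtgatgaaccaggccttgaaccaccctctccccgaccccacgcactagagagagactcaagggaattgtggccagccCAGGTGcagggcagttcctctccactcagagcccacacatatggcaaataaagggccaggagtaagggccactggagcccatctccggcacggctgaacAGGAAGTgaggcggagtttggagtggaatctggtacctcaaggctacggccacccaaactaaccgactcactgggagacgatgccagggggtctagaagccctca
Jchain, chr5:88527848-88528147, minus strand: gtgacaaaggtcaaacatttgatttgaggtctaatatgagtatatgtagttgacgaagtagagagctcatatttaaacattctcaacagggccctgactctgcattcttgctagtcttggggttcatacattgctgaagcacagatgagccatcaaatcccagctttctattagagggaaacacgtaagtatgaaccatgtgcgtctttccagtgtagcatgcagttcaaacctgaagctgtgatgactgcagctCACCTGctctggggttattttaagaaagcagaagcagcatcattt
Ccl28, chr13:119623569-119623868, plus strand: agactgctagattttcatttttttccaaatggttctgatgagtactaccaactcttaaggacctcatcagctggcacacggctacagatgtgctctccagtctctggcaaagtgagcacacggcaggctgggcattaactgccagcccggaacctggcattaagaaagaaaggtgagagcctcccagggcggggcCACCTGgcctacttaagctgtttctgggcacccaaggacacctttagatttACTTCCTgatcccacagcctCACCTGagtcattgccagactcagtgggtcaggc
Pigr, chr1:130826434-130826733, plus strand: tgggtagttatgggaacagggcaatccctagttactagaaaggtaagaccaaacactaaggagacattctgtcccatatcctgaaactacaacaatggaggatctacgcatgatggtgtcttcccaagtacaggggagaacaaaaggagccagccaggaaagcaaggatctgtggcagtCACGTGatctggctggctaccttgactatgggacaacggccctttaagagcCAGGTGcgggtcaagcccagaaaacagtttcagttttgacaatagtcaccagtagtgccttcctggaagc
CAGGTG occurred in all 4 windows printed (with 2 matches for Ccl28), but not in the window of Tnfrsf17, which was also read. It occurred in 20.2% of the 32851 promoters of the same length. AGGAAGT occurred in those of Cd79a and Ccl28 and in 9.35% of all promoters. CACGTG occurred in that of Pigr and in 7.15% of all promoters. The interferon response element, found in 3.44% of all promoters, occurred among the 5 members only in that of Tnfrsf17. Neither the octamer ATGCAAAT (1.74% of all promoters) nor CCCNNGGG (13.7%), the core of the motif of the B cell factor EBF, occurred in the 5 windows. Motifs were searched on both strands, and the letters do not overlap each other in these windows.

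The libraries held between 18479722 and 27604041 reads assigned to genes. A pair of libraries was left out because their profiles went against their labels: LF duodenum 3, which had a liver profile, and LF jejunum 3, which resembled duodenum. That left 52 libraries, with 5 in the LF duodenum and LF jejunum groups and 6 in every other group. Among these, 4 of the 17 duodenum libraries stood apart in B cell genes (LF duodenum 2, VF duodenum 4, VM duodenum 2 and VM duodenum 4). Differences from the duodenum are given with and without them for Cd79a, Cd79b, Ms4a1 and Mzb1, for the counts of members called and for some lists. VF jejunum 1 stood apart in plasma cell and transport genes. Levels are given in CPM, the reads of a gene relative to the total of its library, scaled over the 52 libraries. In whole tissue, fewer cells of a type and less RNA per cell cannot be told apart.

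Pigr and Jchain were the members with the highest levels when divided by exon length. Over the 52 libraries the median was 1134 CPM per kb for Pigr (400.5 to 2700), and 436 CPM per kb for Jchain (191 to 913). The next were Mzb1 (MZB1 helps assemble antibodies in the endoplasmic reticulum) at 10.5 CPM per kb and Ccl28 at 8.59 CPM per kb, whose ranges overlapped (3.64 to 29.7 and 3.27 to 20.5). Cd79a at 3.54, Cd79b at 2.7, Tnfrsf17 at 2.64 and Ccr10 at 1.41 CPM per kb also had overlapping ranges. Ms4a1 was lowest, at a median of 0.0438 CPM per kb, though it reached 12.2 CPM per kb. The low members rest on few reads: a median of 6 per library for Ms4a1, 50 for Tnfrsf17, 55 for Ccr10 and 84 for Cd79b, against 110900 for Pigr. Ms4a1 had 0 reads in VM duodenum 5 and VF jejunum 1, which allows up to 0.153 and 0.180 CPM (3 reads, counting error only).

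**Figure D1:**
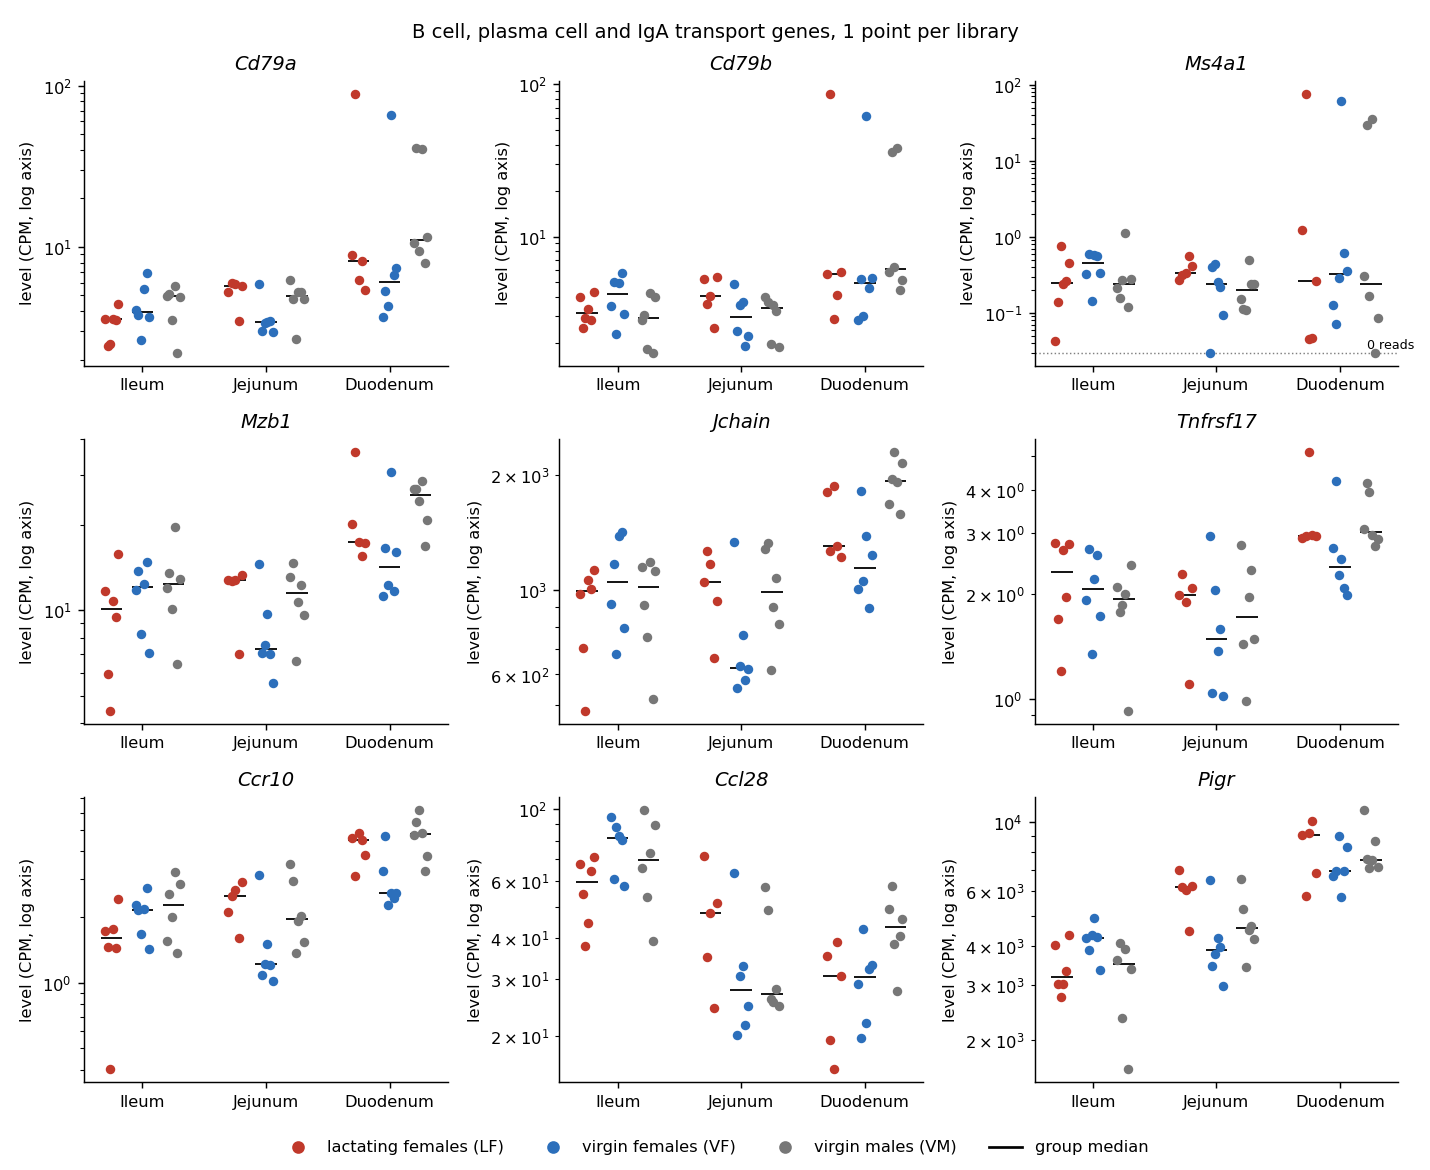
Level of each of the 9 genes in every library (CPM, log axis), by section, with lactating females in red, virgin females in blue and virgin males in grey; bars are group medians. In Cd79a, Cd79b and Ms4a1, 4 duodenum libraries lie far above the rest (Ms4a1 29.7 to 75.4 CPM, against 0 to 1.24 CPM in all others), which Jchain, Tnfrsf17, Ccr10 and Pigr do not show.

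CD79A and CD79B carry the signal of the B cell receptor, and MS4A1 is CD20, a surface protein of B cells that plasma cells lose. In the 4 duodenum libraries that stood apart, Ms4a1 had 75.4 CPM in LF duodenum 2, 60.6 CPM in VF duodenum 4, 29.7 CPM in VM duodenum 2 and 35.8 CPM in VM duodenum 4. In the other 13 duodenum libraries it had at most 1.24 CPM, and in the 35 jejunum and ileum libraries at most 1.13 CPM. The high libraries were thus 1 of 5 in LF, 1 of 6 in VF and 2 of 6 in VM. Cd79a had 40.4 to 88.7 CPM in the 4 libraries, against 3.68 to 11.5 CPM in the other duodenum libraries. Cd79b had 36.1 to 86.2 CPM in them, against 2.85 to 6.35 CPM. The same libraries were high in other genes of mature B cells: Cr2, the complement receptor of follicular B cells, had 29.0 to 68.0 CPM against 0 to 0.259 CPM. Cxcl13, the chemokine of B cell follicles, had 17.4 to 52 CPM against 0.871 to 2.46 CPM. Summed over 20 genes of B cell identity, the 4 libraries had 454 to 1009 CPM, the other duodenum libraries 81.6 to 107 CPM, and the jejunum and ileum libraries 40.0 to 70.7 CPM.

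The plasma cell and transport members did not share this split. Jchain had 1266 to 1952 CPM in the 4 libraries, against 895 to 2297 CPM in the other duodenum libraries, and Tnfrsf17 had 2.52 to 4.17 CPM against 1.99 to 5.13 CPM. Pigr had 5742 to 7579 CPM in them, against 6700 to 10870 CPM. Mzb1 lay between the patterns, with 26.6 to 36.1 CPM against 11.2 to 26.8 CPM. Of 10 genes of M cells and the epithelium over lymphoid follicles, 2 were higher in all 4 libraries than in any other duodenum library, and the other 8 overlapped. Those 2 were Sox8, a transcription factor of M cells, with 1.10 to 2.99 CPM against 0.156 to 0.669 CPM, and Marcksl1, with 15.5 to 25.4 CPM against 7.52 to 12.1 CPM. Spib, a transcription factor of B cells and M cells alike, had 35 to 81.6 CPM against 5.32 to 11.8 CPM. Among the overlapping genes, Ccl20 had 9.01 to 18 CPM against 1.21 to 16.1 CPM, Gp2 4.59 to 188 CPM against 0.561 to 171 CPM, and Cldn4 43.0 to 67.1 CPM against 52.6 to 116 CPM. Summed, the 10 genes had 275 to 414 CPM in the 4 libraries and 199 to 414 CPM in the other duodenum libraries. The exocrine pancreas expresses Gp2 as well, and the summed pancreatic genes varied just as widely among duodenum libraries, from 7.09 to 16260 CPM.

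**Figure D2:**
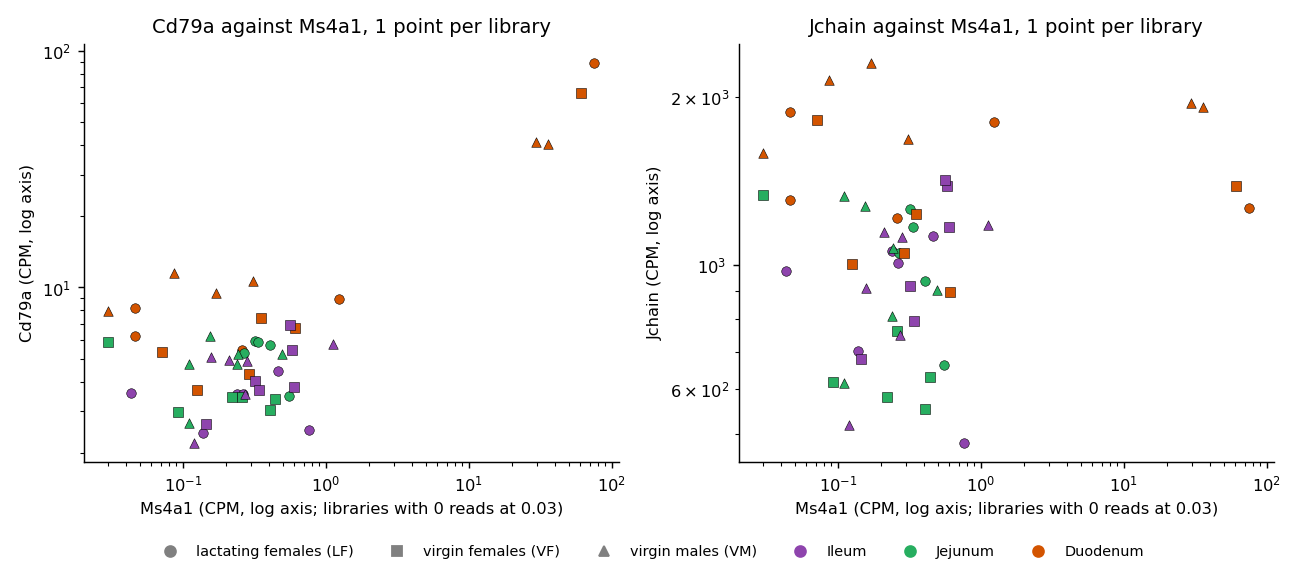
Cd79a (left) and Jchain (right) against Ms4a1 in each of the 52 libraries (CPM, log axes); colour gives the section and shape the group, and the 2 libraries with 0 Ms4a1 reads are drawn at 0.03. The 4 high duodenum libraries have 29.7 CPM of Ms4a1 or more and are also the highest in Cd79a, while their Jchain levels lie within those of the other duodenum libraries.

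Between sections, Cd79a and Cd79b fell in the jejunum and in the ileum relative to the duodenum in all 3 groups, by edgeR's quasi-likelihood test with Benjamini-Hochberg adjustment over all genes. In LF, Cd79a had 2.43 to 4.45 CPM in the ileum (median 3.55), 5.28, 5.94, 5.91, 3.47 and 5.72 CPM in the jejunum, and 8.94, 88.7, 6.24, 8.17 and 5.44 CPM in the duodenum. All LF ileum libraries lay below all LF duodenum libraries, and in the duodenum 1 library was about an order of magnitude above the others. The log2 fold change was -2.78 ± 0.61 (SE; adjusted p = 0.000919) for ileum against duodenum and -2.14 ± 0.63 (adjusted p = 0.0179) for jejunum against duodenum. Without the high duodenum library these were -1.09 (adjusted p = 0.000233) and -0.45 (adjusted p = 0.124). Cd79b in LF changed by -2.62 ± 0.70 in the ileum (adjusted p = 0.00433) and -2.31 ± 0.74 in the jejunum (adjusted p = 0.0271), and by -0.46 (adjusted p = 0.108) and -0.15 (adjusted p = 0.695) without that library. Ms4a1 passed the filter on low counts only in LF, where its log2 fold change was -5.52 ± 1.39 in the ileum (adjusted p = 0.00284) and -5.31 ± 1.49 in the jejunum (adjusted p = 0.0142). Without LF duodenum 2 these differences were -0.26 (adjusted p = 0.776) and -0.05 (adjusted p = 0.971). The jejunum call of Cd79b was also lost without LF jejunum 2, 4 or 5 (adjusted p 0.053 to 0.061). By limma-voom the jejunum values were -1.14 for Cd79a (adjusted p = 0.162), -0.98 for Cd79b (adjusted p = 0.304) and -0.71 for Ms4a1 (adjusted p = 0.749), and the ileum values of Cd79b and Ms4a1 were -1.26 (adjusted p = 0.107) and -1.28 (adjusted p = 0.459).

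VF and VM gave like estimates with all libraries and differed once the high libraries were left out. In VF, Cd79a had 2.65 to 6.93 CPM in the ileum (median 3.92), 2.97 to 5.88 CPM in the jejunum (median 3.41) and 3.68 to 66.2 CPM in the duodenum (median 6.03). These groups overlapped. Its changes of -1.82 ± 0.59 in the ileum (adjusted p = 0.0164) and -2.09 ± 0.60 in the jejunum (adjusted p = 0.0109) became -0.31 (adjusted p = 0.306) and -0.58 (adjusted p = 0.0791) without VF duodenum 4. Cd79b in VF changed by -1.76 ± 0.64 (adjusted p = 0.0298) and -2.16 ± 0.66 (adjusted p = 0.0147), and by -0.05 (adjusted p = 0.891) and -0.45 (adjusted p = 0.22) without that library. Its ileum call was also lost without VF ileum 1, 3 or 6 (adjusted p 0.0547 to 0.0634), and limma-voom called neither gene in VF (adjusted p 0.113 to 0.307). In VM, Cd79a had 2.21 to 5.76 CPM in the ileum (median 4.93), 2.69 to 6.23 CPM in the jejunum (median 5.00) and 7.99 to 41.1 CPM in the duodenum (median 11.1). All VM duodenum libraries lay above all VM jejunum and ileum libraries. Without the 2 high libraries the VM calls remained, at -1.19 in the ileum (adjusted p = 0.000188) and -1.05 in the jejunum (adjusted p = 0.00117) for Cd79a, against -2.19 ± 0.39 (adjusted p = 7.89e-05) and -2.06 ± 0.39 (adjusted p = 0.000265) with them. For Cd79b in VM the values without them were -0.91 (adjusted p = 0.00504) and -0.85 (adjusted p = 0.0133), against -2.44 ± 0.52 (adjusted p = 0.000409) and -2.38 ± 0.52 (adjusted p = 0.000881).

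Plasma cell genes were also lower beyond the duodenum, but in VF none of Jchain, Mzb1, Tnfrsf17 and Ccr10 was called in the ileum. Without the 4 libraries, the LF jejunum differed from the duodenum by -0.61 for Jchain (adjusted p = 0.0619) and -0.88 for Tnfrsf17 (adjusted p = 0.0252) on the log2 scale. Beside these were -0.45 for Cd79a and -0.15 for Cd79b. In VF the values were -0.69 for Jchain (adjusted p = 0.0431) and -0.69 for Tnfrsf17 (adjusted p = 0.0688), beside -0.58 for Cd79a and -0.45 for Cd79b. In VM they were -0.96 for Jchain (adjusted p = 0.00264) and -0.79 for Tnfrsf17 (adjusted p = 0.0201), beside -1.05 for Cd79a and -0.85 for Cd79b. Jchain in LF had 482 to 1126 CPM in the ileum (median 992), 1050, 1261, 1170, 664 and 937 CPM in the jejunum, and 1802, 1266, 1876, 1305 and 1216 CPM in the duodenum. The LF ileum libraries all lay below the LF duodenum libraries, while the jejunum overlapped the duodenum. The log2 fold change was -0.72 ± 0.21 in the ileum (adjusted p = 0.00728) and -0.55 ± 0.22 in the jejunum, which missed the threshold (adjusted p = 0.0697) but passed it by DESeq2 (adjusted p = 0.043) and with library totals alone (-0.67, adjusted p = 0.0265). In VM, Jchain fell by 1.03 ± 0.20 in the ileum (adjusted p = 0.000138) and by 0.94 ± 0.20 in the jejunum (adjusted p = 0.000569) on the log2 scale. There the duodenum had 1583 to 2297 CPM, above every ileum library (518 to 1181 CPM) and jejunum library (616 to 1327 CPM). In VF, Jchain had 679 to 1421 CPM in the ileum, 554 to 1332 CPM in the jejunum and 895 to 1820 CPM in the duodenum. The VF jejunum call (-0.73 ± 0.24, adjusted p = 0.0216) was lost without VF duodenum 2 (-0.58, adjusted p = 0.0645) or VF jejunum 5 (-0.66, adjusted p = 0.0509), and the VF ileum difference was not called (-0.22 ± 0.24, adjusted p = 0.464).

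Mzb1 also had its highest mean in the duodenum of each group. In VF and VM its mean was higher in the ileum (11.35 and 12.43 CPM) than in the jejunum (8.58 and 11.18 CPM). In LF it averaged 9.69 ± 4.12 CPM in the ileum (SD, n = 6), 11.7 ± 2.63 CPM in the jejunum (n = 5) and 21.2 ± 8.44 CPM in the duodenum (n = 5). It fell in the LF ileum by 1.11 ± 0.28 on the log2 scale (adjusted p = 0.00312). In the LF jejunum it fell by 0.85 ± 0.30 (adjusted p = 0.0413), a call lost without LF duodenum 1 or 2 or any of LF jejunum 1, 2, 4, 5 and 6 (adjusted p 0.054 to 0.132). In VM it fell by 0.94 ± 0.21 in the ileum (adjusted p = 0.00062) and by 1.09 ± 0.21 in the jejunum (adjusted p = 0.00028). In VF it fell by 0.94 ± 0.27 in the jejunum (adjusted p = 0.00954), and the ileum value of -0.54 ± 0.26 was not called (adjusted p = 0.10). Leaving out the 4 high duodenum libraries gave jejunum values of -0.58 in LF (adjusted p = 0.132), -0.67 in VF (adjusted p = 0.0319) and -1 in VM (adjusted p = 0.00275). The ileum values were then -0.84 (adjusted p = 0.0126), -0.26 (adjusted p = 0.363) and -0.85 (adjusted p = 0.00465).

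Tnfrsf17, which encodes the survival receptor BCMA of plasma cells, had 1.21 to 2.81 CPM in the LF ileum, 1.99, 2.28, 1.91, 1.11 and 2.09 CPM in the LF jejunum, and 2.90, 2.94, 5.14, 2.95 and 2.94 CPM in the LF duodenum. Neither the ileum nor the jejunum overlapped the duodenum in LF. It fell by 0.60 ± 0.24 on the log2 scale in the LF ileum (adjusted p = 0.0443) and by 0.84 ± 0.26 in the LF jejunum (adjusted p = 0.0229). Without LF duodenum 4 the values were -0.40 (adjusted p = 0.158) and -0.63 (adjusted p = 0.0639). The ileum call was also lost without LF ileum 2, 3 or 5 (adjusted p 0.0776 to 0.0858), and the jejunum call without LF jejunum 5 (adjusted p = 0.0588). In VM it fell by 0.83 ± 0.23 in both the ileum (adjusted p = 0.0034) and the jejunum (adjusted p = 0.00515). In VF edgeR called neither difference (-0.35 ± 0.26, adjusted p = 0.282, and -0.68 ± 0.27, adjusted p = 0.052). The jejunum one passed in 5 alternatives, namely DESeq2 (adjusted p = 0.0383), limma-voom (0.0315), library totals alone (0.0106), the filter on CPM (0.0477) and 1 fit of the 52 libraries (0.0259). It also passed without VF jejunum 1 (-0.91, adjusted p = 0.0107), VF jejunum 3 or VF duodenum 5 (adjusted p = 0.0494 and 0.0496).

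Ccr10 encodes the receptor that IgA plasma cells use to follow CCL28. It had 0.402 to 2.41 CPM in the LF ileum (median 1.60), 2.10, 2.51, 2.67, 1.61 and 2.91 CPM in the LF jejunum, and 4.61, 3.09, 4.86, 4.52 and 3.84 CPM in the LF duodenum. All LF duodenum libraries lay above all LF jejunum and ileum libraries. It fell by 1.42 ± 0.28 on the log2 scale in the LF ileum (adjusted p = 0.000424) and by 0.82 ± 0.29 in the LF jejunum (adjusted p = 0.0471). The jejunum call was lost without any 1 of 9 of the 10 LF duodenum and jejunum libraries (all but LF duodenum 2; adjusted p 0.053 to 0.109). In VM it fell by 1.06 ± 0.24 in the ileum (adjusted p = 0.000694) and by 1.09 ± 0.24 in the jejunum (adjusted p = 0.00098). In VF it fell by 0.98 ± 0.27 in the jejunum (adjusted p = 0.00785), and the ileum difference of -0.53 ± 0.26 was not called (adjusted p = 0.103). Of the stranded reads over Ccr10, 85.2% lay on its own strand, against 96.9% or more for the other members.

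Ccl28, the chemokine that CCR10 recognises, was the one member that was higher in the ileum than in the duodenum. In LF it had 37.8 to 71.2 CPM in the ileum (median 59.7), 71.5, 35.1, 47.8, 24.4 and 51.4 CPM in the jejunum, and 35.3, 19.4, 15.8, 39.0 and 30.7 CPM in the duodenum. The lowest LF ileum library lay just below the highest LF duodenum library, and the jejunum spanned both. In VF it had 58.0 to 94.6 CPM in the ileum (median 81.6), 20.2 to 63.4 CPM in the jejunum (median 27.7) and 19.8 to 42.6 CPM in the duodenum (median 30.5). In VM it had 39.2 to 99.2 CPM in the ileum (median 69.5), 24.8 to 57.6 CPM in the jejunum (median 27) and 27.4 to 57.8 CPM in the duodenum (median 43.2). Only in VF did the ileum stand clear of the duodenum. Ccl28 rose in the ileum against the duodenum by 1.03 ± 0.27 in LF (adjusted p = 0.00368), 1.38 ± 0.24 in VF (adjusted p = 0.000114) and 0.70 ± 0.24 in VM (adjusted p = 0.015) on the log2 scale, and the VM call was lost without VM ileum 2 (0.56, adjusted p = 0.0524). Against the jejunum it rose by 1.27 ± 0.24 in VF (adjusted p = 0.000314) and 1.00 ± 0.24 in VM (adjusted p = 0.00141). In LF the ileum differed from the jejunum by 0.31 ± 0.26 (adjusted p = 0.375). The LF jejunum differed from the LF duodenum by 0.73, which edgeR did not call and DESeq2 did (adjusted p = 0.0331).

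Pigr, the epithelial receptor that carries IgA into the lumen, ran the opposite way. In LF it had 2737 to 4347 CPM in the ileum (median 3168), 7005, 6184, 6046, 4466 and 6217 CPM in the jejunum, and 9050, 5755, 9165, 10020 and 6864 CPM in the duodenum. Every LF ileum library lay below every LF jejunum and duodenum library. In VF it had 3345 to 4924 CPM in the ileum (median 4249), 2974 to 6504 CPM in the jejunum (median 3867) and 5742 to 8985 CPM in the duodenum (median 6965). In VM it had 1612 to 4069 CPM in the ileum (median 3487), 3416 to 6540 CPM in the jejunum (median 4565) and 7101 to 10870 CPM in the duodenum (median 7556). In each group all ileum libraries lay below all duodenum libraries. Pigr fell in the ileum against the duodenum by 1.25 ± 0.17 in LF (adjusted p = 9.52e-06), 0.81 ± 0.17 in VF (adjusted p = 0.000832) and 1.37 ± 0.20 in VM (adjusted p = 7.79e-06) on the log2 scale. In the ileum against the jejunum it fell by 0.80 ± 0.17 in LF (adjusted p = 0.00126) and by 0.59 ± 0.20 in VM (adjusted p = 0.0132; -0.19 and adjusted p = 0.341 when scaled by library totals alone), while in VF the difference was 0.00 ± 0.17 (adjusted p = 0.983). In the jejunum against the duodenum it fell by 0.81 ± 0.17 in VF (adjusted p = 0.00136) and 0.77 ± 0.20 in VM (adjusted p = 0.00324), and the LF value of -0.44 ± 0.18 was not called (adjusted p = 0.0737). It passed by DESeq2 (adjusted p = 0.0399), with library totals alone (-0.56, adjusted p = 0.0112) and without LF duodenum 2 (-0.55, adjusted p = 0.0266).

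**Figure D3:**
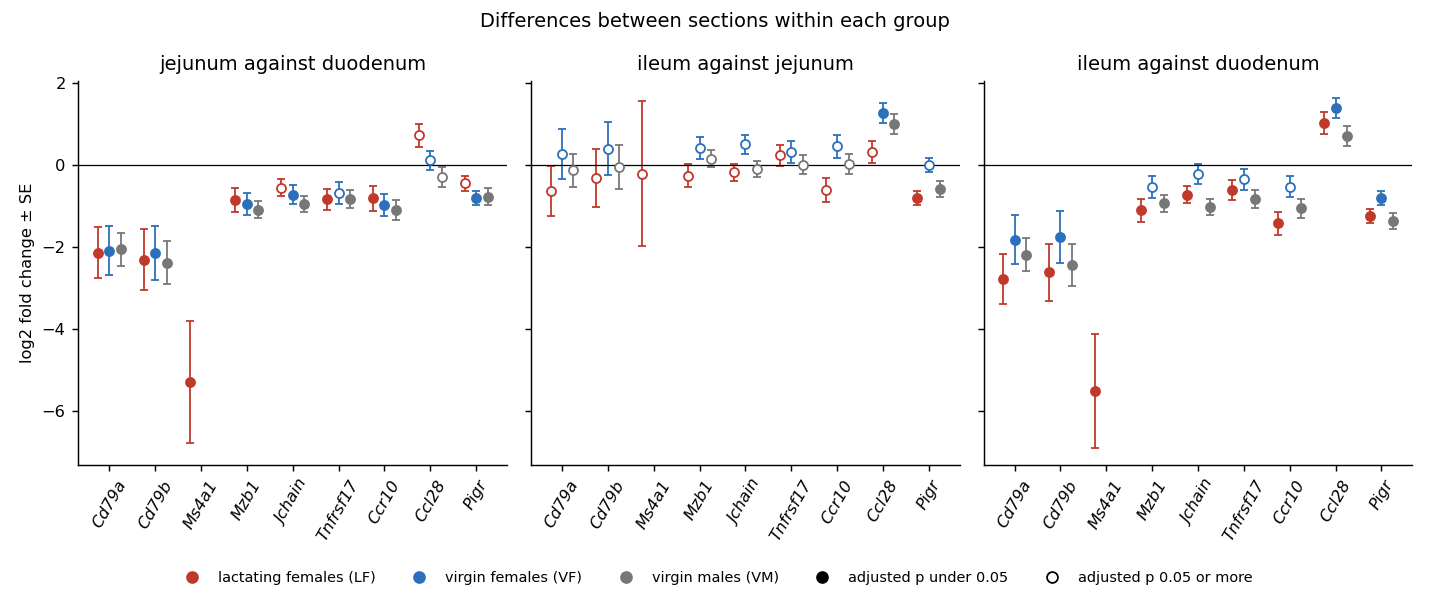
Log2 fold change ± SE of the 9 genes between sections (left, jejunum against duodenum; middle, ileum against jejunum; right, ileum against duodenum) in lactating females, virgin females and virgin males; filled points have an adjusted p under 0.05, and Ms4a1 was tested in lactating females. Ccl28 lies above 0 in the ileum against the duodenum (0.70 to 1.38) where Pigr lies below it (-0.81 to -1.37).

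Counted together, 6 of the 9 members tested in LF were lower and 0 higher in the jejunum than in the duodenum, beside 14.4% lower and 13.0% higher of all 15080 genes tested. In VF these counts were 6 lower and 0 higher of 8 (all genes, 20.0% and 17.2%), and in VM 7 lower and 0 higher of 8 (26.0% and 24.1%). In the ileum against the duodenum, 8 of 9 were lower and 1 higher in LF (27.6% and 25.7% of all genes), 3 lower and 1 higher of 8 in VF (26.0% and 21.1%), and 7 lower and 1 higher of 8 in VM (32.5% and 32.7%). In the ileum against the jejunum, 1 was lower and 0 higher of 9 in LF (18.8% and 18.4%), 0 lower and 1 higher of 8 in VF (24.1% and 23.9%), and 1 lower and 1 higher of 8 in VM (30.2% and 34.0%). Without the 4 libraries, 3 of 9 members were called for the jejunum against the duodenum in LF (all 15168 genes, 2076 lower and 1776 higher). In VF 4 of 8 were called (15243 genes, 2571 lower and 2319 higher). In VM all tested but Ccl28 were (15304 genes, 3491 lower and 2887 higher). For the ileum against the duodenum 7 of 9 were called in LF (all genes, 4080 lower and 3999 higher). There 2 of 8 were called in VF (3780 and 3161) and 8 of 8 in VM (4891 and 4605). In the ileum against the jejunum of LF, Cd79a was called without them (-0.64, adjusted p = 0.0141). With the 2 left-out libraries put back under their labels, 0 members were called for the jejunum against the duodenum in LF (all 15053 genes, 1180 lower and 567 higher). For the ileum against the jejunum 0 were called (1488 lower and 1029 higher). For the ileum against the duodenum 4 were (Cd79a, Cd79b, Ms4a1 and Pigr), beside 3532 lower and 2226 higher of all genes. Scaling by library totals alone moved the median log2 fold change of all genes by -0.14 to -0.24 for the jejunum against the duodenum, by 0.22 to 0.40 for the ileum against the jejunum, and by 0.08 to 0.16 for the ileum against the duodenum. Under it the 6 members called in the VF ileum against the jejunum were all higher, beside 8101 higher and 1731 lower of all 15154 genes.

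**Figure D4:**
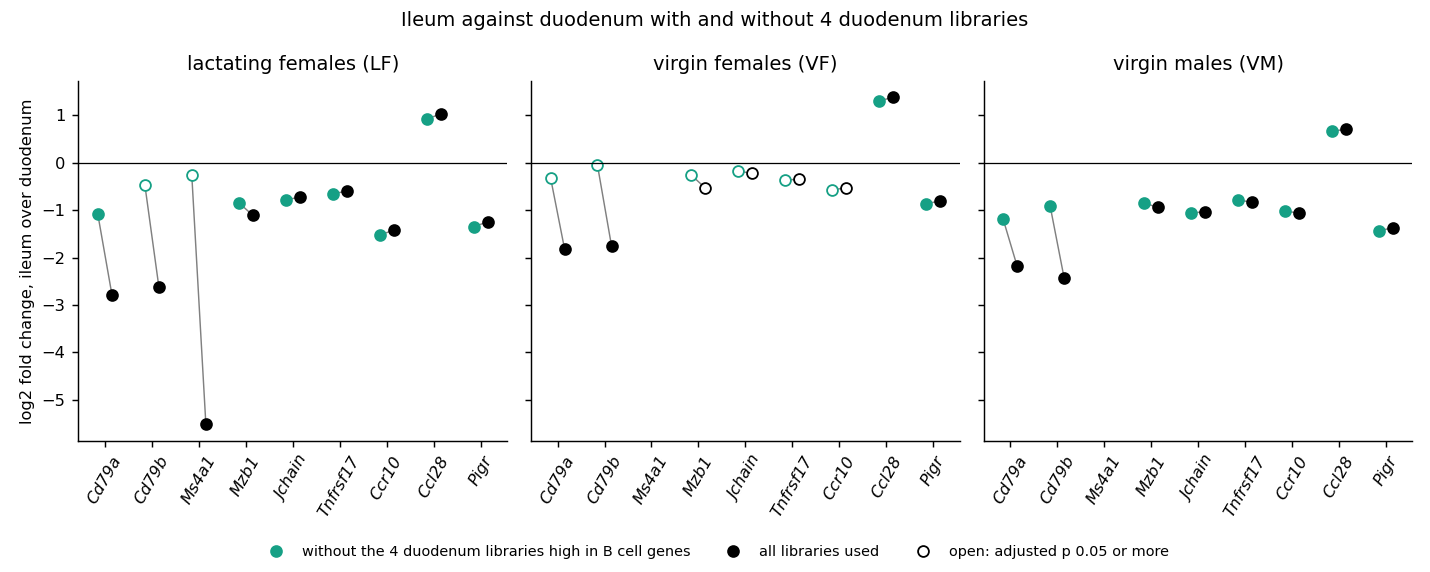
Log2 fold change of each gene in the ileum against the duodenum without (green, left) and with (black, right) the 4 duodenum libraries high in B cell genes, in each group; open points have an adjusted p of 0.05 or more. Cd79a, Cd79b and Ms4a1 move toward 0 without them (Cd79a in lactating females -1.09 against -2.78), and Pigr moves little (-1.35 against -1.25).

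Other genes of the same pathways were followed by fixed lists. Of all genes tested, 14.4%, 20.0% and 26.0% were lower in the jejunum than in the duodenum of LF, VF and VM. Those higher were 13.0%, 17.2% and 24.1%. Of antigen receptor signalling genes, 9 of 12 tested in LF, 8 of 11 in VF and 9 of 11 in VM were lower in the jejunum than in the duodenum, and 0 were higher. With the 4 high libraries left out, 3, 5 and 9 were lower. Among them were Prkcb, a kinase downstream of the receptor (LF, 7.57 ± 1.96 CPM in the jejunum and 23.8 ± 28.2 CPM in the duodenum, or 11.3 ± 2.98 CPM without LF duodenum 2, when its adjusted p was 0.0678), and Dok3, an adaptor that dampens the signal. Pik3ap1, an adaptor for PI3 kinase, ran the other way in the ileum, at 74.7 ± 10.03 CPM in the LF ileum and 16 ± 15.3 CPM in the LF duodenum (9.21 ± 1.07 CPM without LF duodenum 2). Of genes for IgA switching and plasma cell survival, 6, 7 and 8 of 12 were lower and 1 was higher in the jejunum than in the duodenum of LF, VF and VM. Leaving out the 4 libraries gave 3, 4 and 6 lower and 1 higher. The one higher was Nos2, the inducible nitric oxide synthase, which averaged 359 ± 124 CPM in the LF ileum, 109 ± 64.8 CPM in the LF jejunum and 5.69 ± 10.1 CPM in the LF duodenum. Tnfrsf13b, the receptor TACI for the survival factors BAFF and APRIL, had 5.16 ± 2.04 CPM in the LF ileum and 14.6 ± 8.31 CPM in the LF duodenum (10.9 ± 1.26 CPM without LF duodenum 2; adjusted p = 0.00216). Of homing genes, 6, 8 and 10 of 14 were lower and 1, 0 and 2 higher in the jejunum than in the duodenum of LF, VF and VM, a list that holds Ccr10 and Ccl28 themselves. When the 4 libraries were left out, 5, 6 and 8 were lower and 1, 0 and 2 higher. Madcam1, the vessel address molecule of the gut, had 1.60 ± 0.34 CPM in the LF ileum and 5.46 ± 4.4 CPM in the LF duodenum (3.58 ± 1.5 CPM without LF duodenum 2; adjusted p = 0.000868). In all 4 high libraries it had 7.93 to 13.0 CPM, against 1.76 to 5.32 CPM in the other duodenum libraries. Of genes for IgA transport and its induction in the epithelium, 6, 7 and 8 of 13 were higher and 0, 1 and 1 lower in the jejunum, the lower one being Pigr itself. Among those higher were Relb, a subunit of NF-κB (LF, 94.9 ± 5.39 CPM in the jejunum and 63.4 ± 10.1 CPM in the duodenum), and Il17rc, a subunit of the IL-17 receptor (VM, 177 ± 21.9 CPM and 95 ± 17.6 CPM).

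Marker lists of other cell types differed between the sections too. The shares of all genes for the jejunum against the duodenum are those given above. In the ileum against the duodenum, 25.7%, 21.1% and 32.7% of all genes were higher in LF, VF and VM, and 27.6%, 26.0% and 32.5% lower. Of 10 epithelial genes tested, 7, 7 and 9 were higher and 0 lower in the jejunum than in the duodenum of LF, VF and VM, and their summed level was 16350 to 23450 CPM in the ileum, 16310 to 24120 CPM in the jejunum and 8699 to 14240 CPM in the duodenum. Pigr came to 17.0 ± 3.28% of that sum in the LF ileum, 32.0 ± 5.71% in the LF jejunum and 70.1 ± 9.02% in the LF duodenum (SD). So Pigr was lower in the distal sections while the epithelial genes around it were higher. Ccl28 came to 0.283 ± 0.0715% of the epithelial sum in the LF ileum and 0.245 ± 0.0838% in the LF duodenum, values within 1 SD of each other. In VF it came to 0.432 ± 0.121% in the ileum and 0.253 ± 0.0455% in the duodenum. In VM the ileum was not higher, at 0.380 ± 0.109% against 0.407 ± 0.138% in the duodenum. Of 14 T cell genes, 5, 12 and 13 were lower in the jejunum than in the duodenum of LF, VF and VM (sums of 29.9 to 319.5 CPM in the ileum, 104 to 383 CPM in the jejunum and 242 to 520.0 CPM in the duodenum), and 2, 8 and 6 without the 4 libraries. Of 12 myeloid genes, 9, 10 and 10 were lower and 1, 0 and 0 higher in the jejunum (218 to 391.6 CPM in the ileum, 267 to 495 CPM in the jejunum and 362 to 828 CPM in the duodenum). Of 8 smooth muscle genes, 7, 5 and 8 were higher in the ileum than in the duodenum (5272 to 8324 CPM against 2016 to 6337 CPM). The 20 genes of the plasma cell and secretory programme, many of which secretory epithelium also uses, were mixed: 6, 2 and 8 were higher and 8, 3 and 7 lower in the ileum than in the duodenum of LF, VF and VM. Pou2af1, a B cell and plasma cell coactivator, had 5.34 ± 1.45 CPM in the LF ileum and 29.2 ± 27.8 CPM in the LF duodenum (16.9 ± 2.93 CPM without LF duodenum 2; adjusted p = 1.28e-05), and Sdc1, the plasma cell marker CD138 that epithelium also carries, had 185 ± 9.81 CPM and 79.2 ± 21.7 CPM. The part of these other cells in the members' differences was not tested.

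Lactation changed none of the 9 members past the threshold in any section. In the jejunum and the duodenum the point estimates lay mostly above 0, and in the ileum below it. By edgeR, 0 of 9 members tested in the duodenum, 0 of 8 in the jejunum and 0 of 9 in the ileum were called. All genes gave few calls as well: 0.00662% of 15116 higher and 0% lower in the duodenum, 0.345% of 14783 higher and 0.967% lower in the jejunum, and 1.25% of 15106 higher and 0.914% lower in the ileum. An unadjusted p under 0.05 was found for 1, 3 and 1 members by edgeR, and for 1, 4 and 1 by both DESeq2 and limma-voom, each with 0 calls. Of all genes, 8.51%, 15% and 17.9% had such a p by edgeR, so the members' shares in the duodenum and ileum were near or below that of all genes. The log2 fold change was above 0 for 8 of 9 members in the duodenum, 8 of 8 in the jejunum and 1 of 9 in the ileum. Of all genes, 51.9%, 47.7% and 45.6% lay above 0. The members' medians were 0.38, 0.49 and -0.30, against -0.02 to 0.01 for all genes. In the duodenum, Cd79a, Cd79b and Ms4a1 changed sign without LF duodenum 2 (-1.11, -1.56 and -4.69). Without VF duodenum 4 they were 2.12, 2.34 and 5.77. Members also varied together between libraries, so their signs are not independent.

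Pigr gave the lowest p in the jejunum. It had 7005, 6184, 6046, 4466 and 6217 CPM in LF and 2974 to 6504 CPM (median 3867) in VF. All 5 LF libraries were above 5 of the 6 VF libraries, and VF jejunum 1, at 6504 CPM, was among the LF values. The fold was 1.44 (95% confidence interval 1.11 to 1.87, unadjusted p = 0.00894, adjusted p = 0.16). Ccr10 in the jejunum had 2.10, 2.51, 2.67, 1.61 and 2.91 CPM in LF and 1.02 to 3.12 CPM (median 1.22) in VF, with a fold of 1.56 (1.02 to 2.40, adjusted p = 0.307). Cd79a had 5.28, 5.94, 5.91, 3.47 and 5.72 CPM in LF and 2.97 to 5.88 CPM (median 3.41) in VF, with a fold of 1.43 (1.06 to 1.93, adjusted p = 0.229). Jchain differed 1.36-fold (0.976 to 1.90, adjusted p = 0.376), Ccl28 1.43-fold (0.909 to 2.26, adjusted p = 0.461) and Mzb1 1.37-fold (0.981 to 1.91, adjusted p = 0.366).

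VF jejunum 1 decided how close these values came to the threshold. It had 1332 CPM of Jchain, 6504 CPM of Pigr, 63.4 CPM of Ccl28 and 3.12 CPM of Ccr10, where the other 5 VF jejunum libraries had 554 to 764, 2974 to 4250, 20.2 to 32.9 and 1.02 to 1.5 CPM. VF jejunum 1 was singled out for its high values in these members, so leaving it out was bound to raise their differences. Without it, 7 of the 8 members tested had an unadjusted p under 0.05 (14.0% of all genes, which were not chosen in this way), and still 0 were called. Pigr then differed by 0.69 ± 0.16 on the log2 scale (adjusted p = 0.0577), Ccr10 by 0.95 ± 0.25 (adjusted p = 0.0838), Cd79a by 0.68 ± 0.19 (adjusted p = 0.0983) and Jchain by 0.68 ± 0.19 (adjusted p = 0.104).

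In the ileum the lowest p was that of Ccl28, at 37.8 to 71.2 CPM in LF (median 59.7) and 58.0 to 94.6 CPM in VF (median 81.6). The groups overlapped, and the fold was 0.726 (0.544 to 0.969, adjusted p = 0.224). Pigr had a fold of 0.812 (0.622 to 1.06, adjusted p = 0.421), Ccr10 of 0.739 (0.486 to 1.123, adjusted p = 0.459), Jchain of 0.834 (0.597 to 1.17, adjusted p = 0.607) and Cd79a of 0.751 (0.533 to 1.06, adjusted p = 0.38). In the duodenum Ccr10 had 4.61, 3.09, 4.86, 4.52 and 3.84 CPM in LF and 2.28 to 4.71 CPM (median 2.57) in VF, with a fold of 1.41 (1.04 to 1.91, adjusted p = 0.519). Jchain had 1.22-fold (0.940 to 1.58, adjusted p = 0.722) and Pigr 1.13-fold (0.903 to 1.42, adjusted p = 0.828). The intervals of Cd79a (0.430 to 5.36), Cd79b (0.357 to 6.59) and Ms4a1 (0.109 to 20.6) in the duodenum were wide, with 1 LF and 1 VF library far above the others. For the other members in the duodenum, the highest upper bound was 1.91-fold (Ccr10) and the lowest lower bound 0.670-fold (Ccl28).

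**Figure D5:**
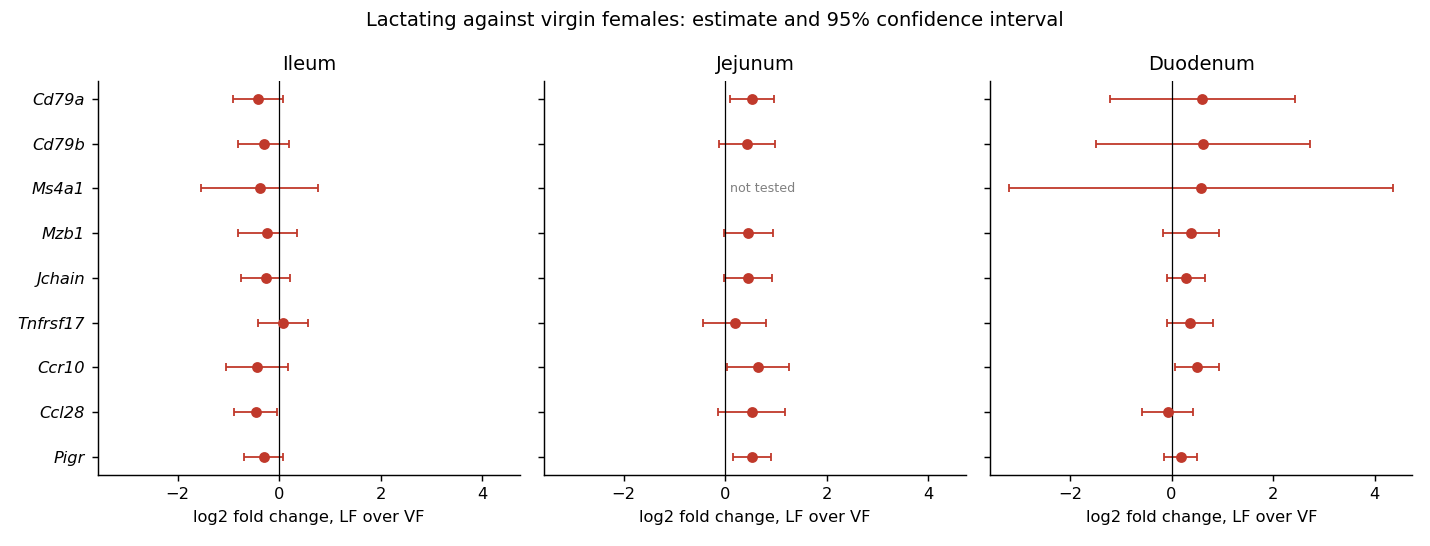
Log2 fold change of lactating over virgin females with its 95% confidence interval for the 9 genes in each section; Ms4a1 was filtered out in the jejunum. Every member tested lies above 0 in the jejunum and 8 of 9 below 0 in the ileum, and 0 members passed the adjusted threshold in any section. Of all genes, 47.7% lie above 0 in the jejunum and 45.6% in the ileum.

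The difference of the lactation effect between sections was tested directly in the 34 female libraries. For the ileum minus the jejunum, 0 of 9 members were called (all 15637 genes, 0.0256% higher and 0% lower), and 4 had an unadjusted p under 0.05 by edgeR, DESeq2 and limma-voom alike (7.58% of all genes by edgeR). These were Pigr (-0.83 ± 0.24, unadjusted p = 0.00138, adjusted p = 0.27), Ccr10 (-1.09 ± 0.40, adjusted p = 0.466), Ccl28 (-0.98 ± 0.38, adjusted p = 0.486) and Jchain (-0.71 ± 0.33, adjusted p = 0.623). For the ileum minus the duodenum, 0 of 9 were called (0.0384% higher and 0.0320% lower of all genes), and Ccr10 alone had an unadjusted p under 0.05 by edgeR (-0.94 ± 0.39, adjusted p = 0.78), against 2 members by DESeq2 and 1 by limma-voom. For the jejunum minus the duodenum, 0 were called (0% of all genes in either direction), and 0 had an unadjusted p under 0.05 by any of the 3 tools. The effects in 2 sections share no library, but each effect enters 2 of these differences.

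The pathway lists gave almost no calls for lactation. Among antigen receptor signalling, IgA switching and survival, and IgA transport genes, 0 were called by edgeR in any section, with an unadjusted p under 0.05 in the duodenum, jejunum and ileum for 1, 2 and 2 signalling genes, 2, 1 and 2 switching and survival genes, and 1, 4 and 1 transport genes. Of the homing genes, 1 of 14 was called, in the ileum: Cxcl12, the ligand of CXCR4, which had 20.8 ± 1.58 CPM in LF and 27.7 ± 1.93 CPM in VF (log2 fold change -0.43 ± 0.08, adjusted p = 0.0134). Of the B cell identity genes, 1 of 13 was called, in the jejunum: Blnk, an adaptor of the B cell receptor, which had 21.4 ± 3.63 CPM in LF and 13.4 ± 2.69 CPM in VF (0.67 ± 0.15, adjusted p = 0.0417). Ccl25, the gut chemokine that draws cells bearing CCR9, had 726 ± 61.2 CPM in the LF jejunum and 858 ± 102 CPM in the VF jejunum (adjusted p = 0.24). Of the M cell and follicle epithelium genes, 1 of 8 was called, in the jejunum: Tnfaip2, which had 10.6 ± 2.05 CPM in LF and 6.11 ± 1.66 CPM in VF (0.80 ± 0.19, adjusted p = 0.0447). Of the 12 myeloid genes, 1 was called, in the ileum: Itgam, the integrin CD11b, which had 17.3 ± 3.72 CPM in LF and 29.6 ± 7.59 CPM in VF (-0.78 ± 0.20, adjusted p = 0.0471). Of the 20 plasma cell and secretory genes, 0 were called in any section by edgeR, and 1, 7 and 6 had an unadjusted p under 0.05. Of the 10 epithelial and 14 T cell genes 0 were called (unadjusted p under 0.05 for 0, 2 and 2 epithelial genes and for 0 T cell genes).

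The VM libraries give the levels in males of the same series without a test of sex. In the duodenum, Jchain averaged 1493 ± 318.5 CPM in LF (n = 5), 1232 ± 337 CPM in VF and 1929 ± 270 CPM in VM (SD, n = 6 each), and Ccr10 averaged 4.19 ± 0.72, 2.97 ± 0.92 and 4.72 ± 1.06 CPM. VM values lay mostly above those of VF in that section, with overlap. In the jejunum Jchain averaged 1016 ± 232, 747 ± 295 and 1001 ± 276 CPM in LF, VF and VM, and in the ileum 892 ± 248, 1062 ± 311 and 939 ± 264 CPM, with overlap of all 3 groups in both sections.

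Between libraries of the same group, Ms4a1 varied most like other B cell genes and Jchain most like plasma cell genes. Cd79a stood nearer to Ms4a1 over all 52 libraries, and had about the same correlation with both without the 4 high ones. Correlations were taken over the 52 libraries on log2 CPM minus the group mean, so the points share their scaling and, for B cell genes, the 4 high libraries. The genes most like Ms4a1 among 13160 included Cxcl13 (Pearson's r = 0.908), Cd22 (0.906), Pou2f2 (0.895) and B3gnt5 (0.893). With Cd79b it was 0.871, with Cd79a 0.848, with Mzb1 0.423 and with Jchain -0.030. Without the 4 libraries, Ms4a1 had 0.561 with Cd79a (rank 47) and 0.608 with Cd79b. Jchain then had 0.585 with Cd79a (rank 97), against 0.327 in all 52. Those most like Jchain among 13159 were Tnfrsf17 (0.802), Ccr10 (0.801), Mzb1 (0.761), Eaf2 (0.750) and Jaml (0.739), so 3 of the first 3 ranks were members. Those most like Ccl28 were B3glct (0.822), Tc2n (0.745), Pigr (0.740), Mov10 (0.723) and Igf2bp2 (0.717). Those most like Pigr were Mov10 (0.830), Barx2 (0.804), Smpdl3b (0.792), Abcc3 (0.777) and Slc35f2 (0.770), with Ccl28 at rank 7 and Jchain at rank 32 (0.615). Without the 4 libraries, Mzb1 was first for Jchain (0.847, 48 libraries), B3glct for Ccl28 (0.848) and Mov10 for Pigr (0.825), whose value with Mzb1 was then 0.699 (rank 13).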

How the data were processed

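Reads of directional, polyadenylated libraries had been assigned to genes by the authors, and the deposited files hold raw counts per gene in whole reads. Tools listed by the submitters' processing notes, with no role given, are STAR (2.7.7a), DESeq2 (1.34.0) and FastQC (0.11.5), with the build GRCm38. The annotation is not given in the sources used here. The fourth column was used, which held 97.9% to 98.6% of the stranded gene reads. Rows for reads in no gene (20.0% to 31.7%) stayed out of library sizes.

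The members and gene lists were chosen with earlier results of these data known. Genes passing filterByExpr (minimum count 10, minimum total 15) were scaled by TMM and tested with edgeR 4.0.16 (R 4.3.3) by quasi-likelihood F tests, with Benjamini-Hochberg adjustment over all genes tested and a threshold of 0.05. Lactation was tested as LF against VF in a fit of the LF, VF and VM libraries of 1 section. The VM libraries thus entered the filter, the scaling and the estimate of the spread. Sections were tested within LF, VF or VM, and differences of the lactation effect in the 34 female libraries. The fits were tested on simulated data. Levels are CPM scaled by TMM over the 52 libraries, and correlations used a prior count of 2. From each list and comparison up to 3 genes past the threshold with the largest absolute log2 fold change (mean log2 CPM of at least 0) were named, or, where none passed, the gene with the highest level. A few genes that these rules name are not reported here. No 2 replicates agreed within sampling noise (lowest chi-square per degree of freedom 13.6 over 135 pairs). Alternatives were DESeq2 1.42.0, limma-voom 3.58.1, other scalings, other filters, 1 fit of all 52 libraries, the replicate number as a block, all libraries as labelled and leaving out each library. The fit without the 4 duodenum libraries high in B cell genes was chosen after seeing the data.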

Additional observations from a re-analysis of the deposited data

Results flagged for a closer look

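In 19 of 81 sets of 1 gene and 1 group, a single library lay far from the others by Dixon's test on CPM. Chance flags about 1 in 20 independent sets of normally distributed values. These sets are not independent, since the same library was flagged for several genes. LF duodenum 2 was such a library for Cd79a (88.7 CPM, others 5.44 to 8.94), Cd79b (86.2 CPM, others 2.89 to 5.87), Ms4a1 (75.4 CPM, others 0.0459 to 1.24) and Mzb1 (36.1 CPM, others 15.5 to 20.1). VF duodenum 4 was one for the same genes: Cd79a (66.2 CPM, others 3.68 to 7.41), Cd79b (61.6 CPM, others 2.85 to 5.35), Ms4a1 (60.6 CPM, others 0.0714 to 0.609) and Mzb1 (30.8 CPM, others 11.2 to 16.5).

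VF jejunum 1 was high for Cd79a (5.88 CPM, others 2.97 to 3.46), Jchain (1332 CPM, others 554 to 764), Ccr10 (3.12 CPM, others 1.02 to 1.5), Ccl28 (63.4 CPM, others 20.2 to 32.9) and Pigr (6504 CPM, others 2974 to 4250). LF jejunum 5 was low for Cd79a (3.47 CPM, others 5.28 to 5.94) and Mzb1 (7.04 CPM, others 12.7 to 13.3). Tnfrsf17 was high in LF duodenum 4 (5.14 CPM, others 2.90 to 2.95) and VF duodenum 2 (4.25 CPM, others 1.99 to 2.72). Ms4a1 was high in VM jejunum 4 (0.49 CPM, others 0.11 to 0.243) and VM ileum 4 (1.13 CPM, others 0.120 to 0.279).

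The library labelled LF jejunum 3, which was left out as it resembled duodenum, had 35.2 CPM of Cd79a, 30.9 CPM of Cd79b, 27.9 CPM of Ms4a1 and 8555 CPM of Pigr. These values alone were scaled over all 54 libraries. The 6 VF jejunum libraries had 2.97 to 5.88, 1.92 to 4.86, 0 to 0.441 and 2974 to 6504 CPM of these genes. The 6 VF duodenum libraries, of which 1 was high in B cell genes, had 3.68 to 66.2, 2.85 to 61.6, 0.0714 to 60.6 and 5742 to 8985 CPM.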

How the results depend on the processing

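Of 44 member calls between sections, 23 were kept under all alternatives and 28 under all but that with all libraries as labelled. Lactation gave 0 member calls in 21, 20 and 20 alternatives for the duodenum, jejunum and ileum (lowest adjusted p 0.240, 0.0577 and 0.123), and the differences between sections 0 in 32, 33 and 33. Reads limit Ms4a1, Tnfrsf17, Ccr10 and Cd79b, and 1 library limits the B cell genes in the LF and VF duodenum.

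The count of members called for the jejunum against the duodenum in LF was 2 by limma-voom, 0 with all libraries as labelled and 3 without the 4 high duodenum libraries, against 6. For the ileum against the jejunum in LF it was 0 as labelled and 2 without the 4 libraries, against 1, and for the ileum against the duodenum in LF it was 4 as labelled, against 9. For the ileum against the jejunum in VF it was 6 with library totals and 2 in the fit of 52 libraries, against 1. For the ileum against the duodenum in VF it was 2 by DESeq2 (of 6 members with an adjusted p), by limma-voom and without the 4 libraries, against 4. Leaving out 1 library gave counts of 3 to 6 for the jejunum against the duodenum in LF, 1 to 2 for the ileum against the jejunum in LF, 1 to 3 for the ileum against the jejunum in VF and 2 to 5 for the ileum against the duodenum in VF. The causes were not tested.

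With the replicate number as a block, 10 member calls ended and 2 were gained. In the jejunum against the duodenum of LF, Cd79a (-1.36, adjusted p = 0.112), Cd79b (-1.18, adjusted p = 0.246) and Ms4a1 (-2.53, adjusted p = 0.262) were no longer called by edgeR, and Jchain (adjusted p = 0.0426) and Ccl28 (adjusted p = 0.0375) were. Calls also ended for Cd79b (-1.41), Ms4a1 (-3.33) and Tnfrsf17 (-0.47) in the LF ileum and for Cd79a and Cd79b in the VF jejunum (-1.26 and -1.22) and VF ileum (-1.08 and -0.84), all against the duodenum (adjusted p 0.0628 to 0.208). The count for the ileum against the duodenum in VF was 2, against 4, and Tnfrsf17 in the ileum against the jejunum of VM changed sign (-0.0025). The labels do not tie equal numbers to 1 animal, so the main fits do not pair the libraries. Of 67 pairs of libraries with the same number, 30 had a correlation of deviations over 0.1 (-0.462 to 0.521), with 0 of 12 group pairs in which all were. The median was 0.146 for the VF ileum and duodenum (-0.057 for other numbers) and 0.121 for the LF and VF duodenum (-0.042). It was -0.083 for the VF ileum and jejunum (-0.004). These values cannot exclude pairing.

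Uncalled estimates near 0 changed sign in these fits. With library totals these were Tnfrsf17 for lactation in the ileum (-0.01), Jchain for the ileum against the jejunum in LF (0.04), Ccl28 for the jejunum against the duodenum in VF (-0.1), and Cd79a, Cd79b and Jchain for the ileum against the jejunum in VM (0.27, 0.35 and 0.32). With all libraries as labelled, Pigr for lactation in the duodenum was -0.01. Tnfrsf17 for the ileum against the jejunum in VM was -0.01 by median-of-ratios scaling, DESeq2 and the fit of 52 libraries, -0.00095 with no filter and -0.00088 without the 4 libraries.

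Leaving out 1 library, lactation estimates in the duodenum ranged from -1.11 to 2.12 for Cd79a, -1.56 to 2.34 for Cd79b, -4.69 to 5.77 for Ms4a1 and -0.23 to 0.08 for Ccl28, and in the ileum from -0.04 to 0.19 for Tnfrsf17. In the ileum against the jejunum they ranged from -0.3 to 0.01 for Ms4a1 in LF and -0.08 to 0.18 for Pigr in VF. In VM they ranged from -0.25 to 0.01 for Cd79a, -0.19 to 0.06 for Cd79b, -0.03 to 0.29 for Mzb1, -0.2 to 0.03 for Jchain, -0.12 to 0.15 for Tnfrsf17 and -0.1 to 0.21 for Ccr10. Ccl28 for the jejunum against the duodenum in VF ranged from -0.19 to 0.24.

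Scaling by library totals alone moved the balance of all genes called higher and lower. For the jejunum against the duodenum it gave 1199 and 3594 in LF, 1394 and 5650 in VF and 1650 and 7141 in VM, against 1958 and 2167, 2599 and 3036, and 3642 and 3929. For the ileum against the jejunum it gave 5294 and 1676, 8101 and 1731, and 9357 and 2083, against 2776 and 2835, 3619 and 3652, and 5145 and 4559. For the ileum against the duodenum it gave 4221 and 3405 in LF, 4235 and 2877 in VF and 6412 and 3717 in VM, against 3876 and 4160, 3191 and 3939, and 4948 and 4904. For lactation it gave 5 and 3 in the duodenum, 73 and 119 in the jejunum and 123 and 452 in the ileum, against 1 and 0, 51 and 143, and 189 and 138.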
